A study of Saccharomyces cerevisiae with 40 samples.

Results

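Budding yeast, Saccharomyces cerevisiae, supplied with excess alanine was compared with control yeast across all genes of the deposited expression table. The comparison rests on 8 of the 40 libraries of the series, the 4 labelled Ala and the 4 labelled Ctrl, and they were taken by label with no use of their values. The series holds 10 groups of 4 libraries, namely Ctrl and groups named for alanine (Ala), glycine, valine, isoleucine, threonine, phenylalanine, tryptophan, cysteine and methionine, each with 1 library in each of 4 batches lettered A to D. Strain, genotype, medium, dose and duration of exposure are not given in the labels. The libraries are not said to come from separate cultures, so p-values speak to the spread among libraries, part of which may be technical. That spread, and the standard errors, were estimated over all 40 libraries of the series, not from the 8 compared alone. The 32 libraries of the other 8 amino acids serve below to show where Ala stood apart from them as well as from Ctrl. Values are the authors' normalized read counts per gene, here called normalized reads, and the estimated depth was 6252529 to 10171866 reads assigned to genes in Ala and 5905332 to 16698558 in Ctrl.

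The table lists 6462 genes, and the 6103 that averaged 5 normalized reads or more over the 40 libraries were tested. A gene was called when limma's moderated test on log2(value + 1), adjusted over all 6103 genes by Benjamini-Hochberg, gave a p under 0.05. Of the genes tested 47.2% changed in Ala against Ctrl, 1407 up (23.1%) and 1474 down (24.2%), and the median size of the log2 difference among them was 0.53. At least 8-fold differences were found for 26 genes that rose and 3 that fell. The 4 Ala libraries all lay above the 4 Ctrl libraries for 1235 genes and all below them for another 1235. A further condition, a call in the same direction against the average of the other 8 amino acids, was met by 2477 genes (40.6%), 1212 higher and 1265 lower, and those genes are called set apart here. Both contrasts use the same 4 Ala libraries, so agreement between them is partly built in. A gene set apart differs from the average of the other 8, not necessarily from each of them. The deposited values summed to less in Ala (7278922 to 8580360) than in Ctrl (8764269 to 9794643). With all libraries rescaled to equal totals, the median log2 difference over all genes moved up by 0.187, the calls split into 2167 up and 758 down, and the genes set apart into 2043 higher and 560 lower, so the balance of rises and falls depends on the scaling. On the first principal component of all 40 libraries, which held 23.6% of the variance, the Ala libraries scored 26.4 to 42.0 and the Ctrl libraries -14.3 to -12.2. These are bulk RNA samples, in which fewer cells of a kind and less RNA per cell cannot be told apart. A gene list in which about 23.1% of genes rose and 24.2% fell is at the background of this comparison. Counts given at equal totals have another background, 2167 up and 758 down of 6103 genes. The lists were chosen with earlier results of these data known, so their counts, medians and ranks are descriptions and not tests. Log2 differences are Ala minus Ctrl, with their standard error where one is given, on the log2(value + 1) scale, on which changes of scarcely read genes come out too small. Means are in normalized reads ± SD over the 4 libraries of a group, and values per library run from A to D.

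Yeast needs molecular oxygen to make heme, ergosterol and unsaturated fatty acids, and it keeps separate sets of genes for growth with and without oxygen. Rox1 is a DNA-binding repressor, made when heme is present, that holds the hypoxic genes down, while the Hap2/3/4/5 complex activates genes of respiration. Upc2 and Ecm22 are transcription factors that answer to falling sterol and switch on sterol uptake and synthesis. Aft1 and Aft2 switch on iron uptake, and Msn2 and Msn4 the general stress response. Alanine itself is made from pyruvate, and returned to it, by transamination with glutamate.

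Promoter sequences of 6 genes that the results turn on are shown because each holds short motifs known for these factors. Each line is the 300 bases that end 100 bases before the start codon, read 5′ to 3′ on the gene's own strand from the RefSeq R64 genome by gene name, and capitals mark the motif on either strand. None of the 6 windows overlaps a coding sequence, and none of the motifs contains another on either strand. A single motif is marked in each window, and other motifs of this set that a window also holds are left in lower case. In ANB1 (chrX:525482-525781, minus strand) and HEM13 (chrIV:546242-546541, plus strand) the capitals mark ATTGTT, the core of the Rox1 site. In DAN1 (chrX:709808-710107, minus strand) they mark TCGTATA, the sterol element of Upc2 and Ecm22, in COR1 (chrII:135617-135916, minus strand) CCAAT, the Hap2/3/4/5 box, in FIT2 (chrXV:1059131-1059430, plus strand) GCACCC, the Aft1 and Aft2 core, and in HSP42 (chrIV:806221-806520, plus strand) AGGGG, the Msn2 and Msn4 element.
ANB1: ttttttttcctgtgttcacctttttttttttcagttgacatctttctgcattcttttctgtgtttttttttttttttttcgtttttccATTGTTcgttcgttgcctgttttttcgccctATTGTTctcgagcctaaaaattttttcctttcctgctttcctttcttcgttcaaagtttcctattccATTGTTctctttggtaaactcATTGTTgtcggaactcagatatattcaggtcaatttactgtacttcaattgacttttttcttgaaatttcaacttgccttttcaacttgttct
HEM13: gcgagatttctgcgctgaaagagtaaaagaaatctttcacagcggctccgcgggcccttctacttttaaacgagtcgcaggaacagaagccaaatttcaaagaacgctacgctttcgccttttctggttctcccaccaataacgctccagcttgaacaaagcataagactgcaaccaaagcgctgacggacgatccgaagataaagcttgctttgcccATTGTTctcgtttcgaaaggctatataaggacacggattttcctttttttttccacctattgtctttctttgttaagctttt
DAN1: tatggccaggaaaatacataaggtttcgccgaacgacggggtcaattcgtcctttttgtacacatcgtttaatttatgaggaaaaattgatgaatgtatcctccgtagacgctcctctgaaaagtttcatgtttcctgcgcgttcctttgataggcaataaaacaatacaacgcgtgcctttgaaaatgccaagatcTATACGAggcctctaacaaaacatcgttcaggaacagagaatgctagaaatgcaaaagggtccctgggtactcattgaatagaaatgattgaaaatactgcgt
COR1: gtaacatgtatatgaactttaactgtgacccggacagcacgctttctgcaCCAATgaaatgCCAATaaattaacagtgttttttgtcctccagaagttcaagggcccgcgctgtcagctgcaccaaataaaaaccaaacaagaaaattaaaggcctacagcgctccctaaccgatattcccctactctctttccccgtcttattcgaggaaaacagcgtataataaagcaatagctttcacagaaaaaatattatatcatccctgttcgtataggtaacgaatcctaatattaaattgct
FIT2: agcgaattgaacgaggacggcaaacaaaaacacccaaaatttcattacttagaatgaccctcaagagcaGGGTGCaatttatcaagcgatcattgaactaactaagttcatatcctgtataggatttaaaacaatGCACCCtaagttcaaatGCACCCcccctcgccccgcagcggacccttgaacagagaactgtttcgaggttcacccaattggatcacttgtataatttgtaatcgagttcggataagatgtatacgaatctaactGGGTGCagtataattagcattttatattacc
HSP42: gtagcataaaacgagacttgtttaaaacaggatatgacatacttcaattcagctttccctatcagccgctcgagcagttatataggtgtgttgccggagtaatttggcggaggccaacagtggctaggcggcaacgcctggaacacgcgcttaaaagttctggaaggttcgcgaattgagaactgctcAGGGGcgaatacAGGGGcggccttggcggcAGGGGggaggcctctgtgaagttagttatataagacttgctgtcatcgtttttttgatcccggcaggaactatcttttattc

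These short motifs are common, and the windows shown also held some for other factors. The FIT2 window held ATTGTT 1 time, TCGTATA 1 time, CCAAT 2 times and AGGGG 1 time, the DAN1 window ATTGTT 1 time, the COR1 window TCGTATA and AGGGG 1 time each, and the HEM13 window CCAAT 1 time. Among 5634 promoters of genes tested, 32.1% held ATTGTT, 4.53% TCGTATA, 4.74% GCACCC, 44.2% CCAAT and 23.7% AGGGG, on either strand. Among the 343 promoters of genes that rose at least 2-fold these shares were 36.2%, 8.75%, 9.04%, 45.5% and 37.6%, in the same order, and among the 135 of genes that fell at least 2-fold they were 26.7%, 3.70%, 3.70%, 51.9% and 20.7%. ATTGTT was held by 5 of 6 anaerobic cell wall mannoproteins and 4 of 6 hypoxic isoforms, but also by 13 of 22 pheromone response genes. GCACCC was held by 8 of 13 siderophore genes and 10 of 18 reductive iron and copper genes. It was also held by 8 of 15 seripauperins, a family of cell wall proteins. TCGTATA was held by 8 of 29 ergosterol genes, but by 1 of 19 genes of sterol uptake and transfer. AGGGG was held by 53 of 65 genes of the general stress response. CCAAT was held by 19 of 22 respiratory chain genes, but also by 17 of 20 genes of the citric acid cycle, few of which changed. A match describes these letters only and is not evidence of binding.

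The anaerobic cell wall mannoproteins, which coat the cell when oxygen is absent, had the highest median of all gene lists examined. All 6 genes tested rose, with a median log2 difference of 5.13, beside -0.01 over all genes tested. DAN1 (YJR150C) had 18482, 12587, 12419 and 23116 in Ala, against 7.42, 1.98, 2.93 and 1.10 in Ctrl. All 4 Ala libraries were far above Ctrl, which held almost no reads, and Ala D was the highest. The log2 difference was 12.05 ± 0.88 (limma adjusted p = 1.69e-13), and it was 12.42 with a pseudocount of 0.25 and 11.16 with one of 4, since Ctrl held so few reads. TIR1 (YER011W) had 15688, 12248, 8361 and 20769.6 in Ala, against 59.4, 40.7, 57.5 and 58.1 in Ctrl, and its log2 difference was 7.96 ± 0.39 (adjusted p = 3.98e-18). TIR4 (YOR009W) had 16438, 7231, 9721 and 27521 in Ala, against 263, 268, 434 and 301 in Ctrl, a log2 difference of 5.43 ± 0.30 (adjusted p = 9.65e-17). For both genes Ala D was the highest library and no Ala library came near Ctrl.

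TIR3 averaged 4375 ± 1830.1 in Ala and 145 ± 29.9 in Ctrl (SD, n = 4 each). TIR2 averaged 2454 ± 1165 in Ala and 109 ± 19.4 in Ctrl and DAN4 742 ± 337 in Ala and 191 ± 15.7 in Ctrl. The log2 differences of these 3 genes were 4.83, 4.35 and 1.85. DAN4, next to DAN1 in the genome, changed by much less than its neighbour, while TIR4 and TIR2 also lie side by side in R64 next to the sterol transporter AUS1. In the 32 libraries of the other 8 amino acids DAN1 ranged over 0 to 192 normalized reads and TIR1 over 24.02 to 446, so every Ala library was above all of them. Averaged over the 6 genes, the log2 level was 12.6, 11.7, 11.9 and 13.1 in Ala libraries A to D, against 6.36, 5.99, 6.47 and 6.17 in Ctrl. Ala D stood highest of the 4 here, while for the stress genes described further on it stood lowest.

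**Figure D1:**
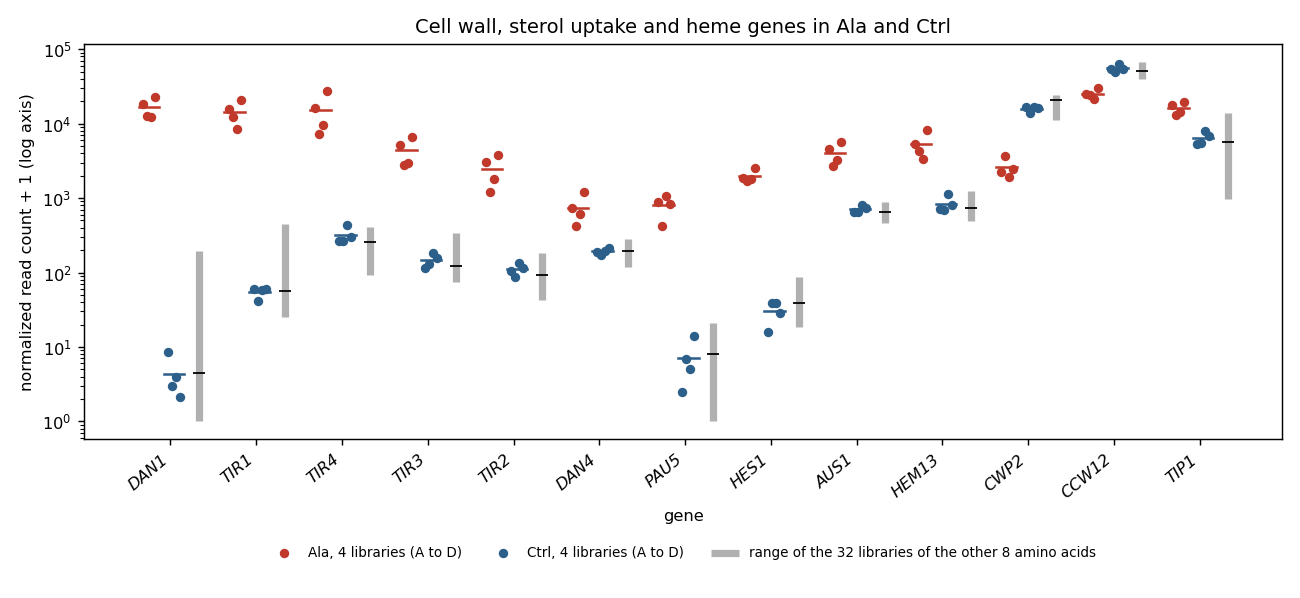
Normalized read count + 1 (log axis) of cell wall, sterol uptake and heme genes, with a point for each of the 4 Ala libraries (red, left) and the 4 Ctrl libraries (blue), the group mean as a line, and the range (grey bar) and median (tick) of the 32 libraries of the other 8 amino acids. From DAN1 to HEM13, and for TIP1, every Ala point lies above every Ctrl point, while CWP2 and CCW12 lie below.

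The seripauperins, small cell wall proteins of a family with many near-identical copies, also gave rises. Of 15 listed genes 9 passed the filter on low values and 7 of those rose, but a gene that passes the filter only through its Ala libraries has to differ, so this count says nothing of the family as a whole. The highest of the other 6, PAU13, averaged 14.7 ± 4.04 in Ala and 1.33 ± 1.56 in Ctrl. PAU5 had 880.1, 416, 1068 and 834 in Ala, against 1.48, 5.95, 4.11 and 13.2 in Ctrl, and PAU24 had 404, 170.0, 477 and 318 in Ala, against 0, 0.992, 3.52 and 4.39 in Ctrl. Both were almost empty in Ctrl and well filled in each Ala library. PAU17 averaged 231 ± 92.1 in Ala and 18.3 ± 7.32 in Ctrl. Reads of these copies can be split between genes, so the values of single members are uncertain.

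Of 6 wall mannoproteins of aerobic growth 3 fell and 1 rose (2 at equal totals). CWP2, a major mannoprotein of aerobic walls, had 2269, 3666, 1944 and 2461 in Ala, against 16627, 13727, 16686 and 16463 in Ctrl, a log2 difference of -2.65 ± 0.14 (adjusted p = 3.69e-17). Every Ala library was far below every Ctrl library and below the range of the other 8 amino acids (11192 to 24457). CCW12, another abundant wall protein, averaged 25139.8 ± 3491 in Ala and 55531 ± 6132 in Ctrl, a log2 difference of -1.15, and SED1 12813 ± 758 in Ala and 21052 ± 3137 in Ctrl (-0.71). TIP1, a cold- and anaerobiosis-responsive relative of the TIR genes listed here with the aerobic group, rose to 16279 ± 3118 in Ala, against 6390.3 ± 1242 in Ctrl. CWP1 stood at 513 in Ala and 282 in Ctrl and did not pass (adjusted p = 0.0738), although it did at equal totals (0.99). CWP1 also passed with the Ala and Ctrl libraries fitted alone and without phenylalanine library C (0.81 in both). Among enzymes and structural genes of the wall, 11 of 26 fell (7 at equal totals and 7 without Ala C) and 2 rose, with a median of -0.26. The glucan-remodelling enzyme GAS1 fell (-0.996), as did the chitin-glucan crosslinker UTR2 (-1.28), whereas the integrity kinase SLT2 rose (0.63).

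Several yeast proteins come as a pair of isoforms, 1 for aerobic and 1 for hypoxic growth, and most pairs moved in opposite directions. Of 6 hypoxic members 5 rose and none fell (median 1.21), and all 5 aerobic members fell (median -1.50). ANB1 (YJR047C), the hypoxic form of the translation factor eIF5A, had 3992, 3751, 2553 and 5734 in Ala, against 62.3, 58.5, 127 and 58.1 in Ctrl. No Ala library came near Ctrl, and the log2 difference was 5.72 ± 0.31 (adjusted p = 3.69e-17). Its aerobic partner HYP2 averaged 1735 ± 1149 in Ala and 4790.4 ± 2296 in Ctrl (-1.50), but the genes are near-identical and HYP2 values were mostly fractional, so the value of HYP2, and its fall, are uncertain. The median of the aerobic members is the value of HYP2 itself. For 4 of the 5 aerobic members all Ala libraries lay below all Ctrl libraries.

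The mitochondrial ADP/ATP carriers showed the same contrast. AAC3, the hypoxic carrier, had 761, 655, 612 and 859.6 in Ala, against 107, 114, 127 and 133 in Ctrl, while PET9, the main aerobic carrier, had 2771, 3118, 2284 and 2688 in Ala, against 5027, 5263, 5567 and 6134 in Ctrl. The groups did not overlap for either gene, and the log2 differences were 2.57 and -1.02. COX5B, the hypoxic form of cytochrome oxidase subunit V, rose to 675 ± 198 in Ala, against 218 ± 56.3 in Ctrl, and its aerobic form COX5A fell to 114 ± 29.002 in Ala, against 440.2 ± 24.95 in Ctrl. Among the HMG-CoA reductases, which set the pace of sterol synthesis, HMG2 rose by 0.77 on the log2 scale and HMG1 fell (-1.32 ± 0.11). CYC1, the main cytochrome c, averaged 26.9 ± 11.6 in Ala and 109 ± 17.6 in Ctrl, a log2 difference of -2.05 ± 0.22, and CYC7, its hypoxic form, 9.72 ± 6.19 in Ala and 4.57 ± 1.94 in Ctrl, which did not pass (adjusted p = 0.525).

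**Figure D2:**
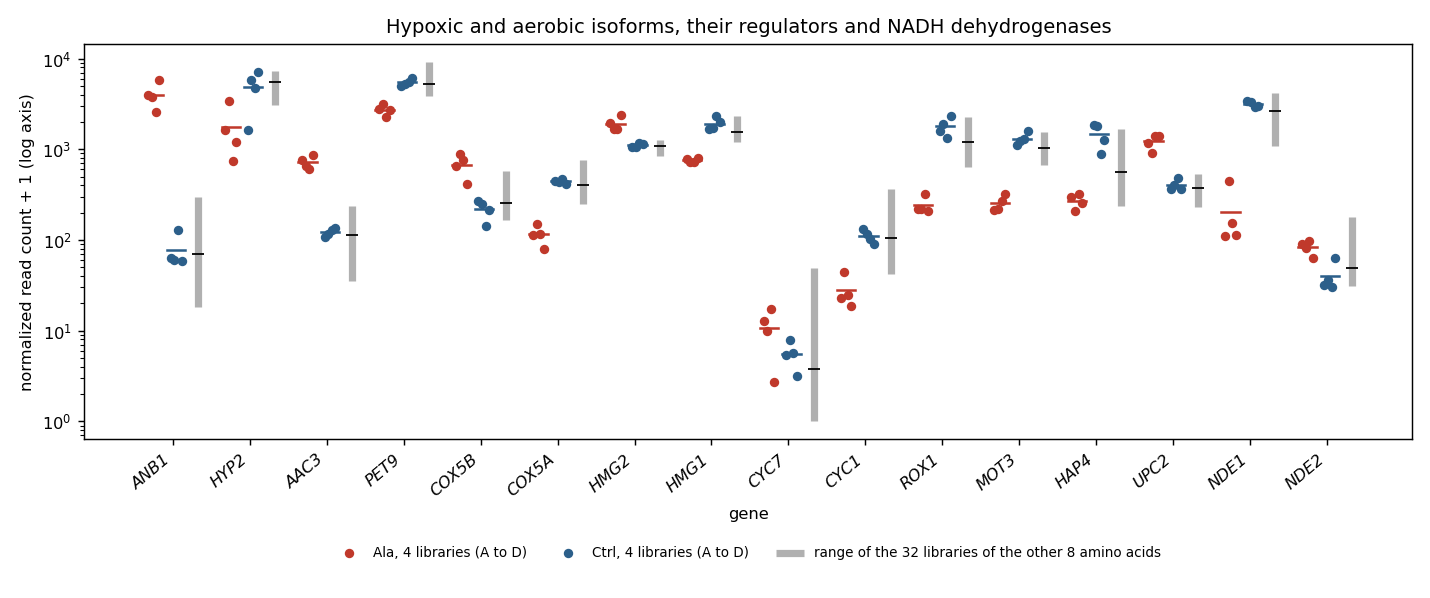
Normalized read count + 1 (log axis) of hypoxic and aerobic isoforms, oxygen and sterol regulators and NADH dehydrogenases, with Ala libraries (red) left of Ctrl libraries (blue), the group mean as a line, and the range (grey bar) and median (tick) of the other 8 amino acids. ANB1, AAC3, COX5B and HMG2 lie higher in Ala and PET9, COX5A, HMG1 and CYC1 lower, while the points of CYC7 and of HYP2 overlap between the groups.

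Among 15 regulators of oxygen and sterol genes, 4 rose and 6 fell. ROX1 had 216, 220.2, 318 and 209 in Ala, against 1584, 1903, 1334 and 2337 in Ctrl. The Ala libraries lay well below the lowest Ctrl library, and also below the range of the other 8 amino acids (630.4 to 2258). MOT3, which acts with Rox1 as a repressor of hypoxic genes, averaged 254 ± 51.6 in Ala and 1301 ± 192 in Ctrl, a log2 difference of -2.36 ± 0.14 (adjusted p = 4.09e-16). HAP4, the activating subunit of the Hap complex, averaged 268 ± 47.5 in Ala and 1456 ± 466 in Ctrl (-2.39 ± 0.33). Its difference from the mean of the other 8 amino acids was smaller, -1.17 ± 0.24, and their range (235 to 1685) overlapped the Ala libraries. HAP2 and HAP3, which bind the DNA in the Hap complex, were at -0.01 and -0.01 on the log2 scale, and neither passed. TUP1, which with CYC8 forms the general corepressor, fell by less (-0.68). UPC2, the sterol sensor, averaged 1219.7 ± 235 in Ala and 401 ± 55.3 in Ctrl, a log2 difference of 1.59 ± 0.16 (adjusted p = 8e-10), and its paralog ECM22 rose by 0.45, a call lost without Ala A, Ala D, Ctrl A, Ctrl B or Ctrl D. MGA2, a membrane-bound activator of the fatty acid desaturase gene and of hypoxic genes, rose by 0.87, while its paralog SPT23 fell (-0.57). The desaturase OLE1 itself was at 7954 in Ala and 7369 in Ctrl and did not pass.

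The genes of sterol import included a very large rise, that of HES1. Of 19 genes of sterol uptake and transfer 9 rose and 4 fell, the falls becoming 1 at equal totals and 2 without Ala C. HES1 (YOR237W), an oxysterol-binding protein, had 1873, 1683, 1791 and 2531 in Ala, against 14.8, 37.7, 37.5 and 27.4 in Ctrl. Ala exceeded Ctrl in every library by a wide margin, a log2 difference of 6.09 ± 0.25 (adjusted p = 3.27e-20). AUS1, a plasma membrane pump that takes up sterol in the absence of oxygen, had 4588, 2722, 3281 and 5709 in Ala, against 641, 645, 801 and 733 in Ctrl, and PDR11, its partner in uptake, averaged 585 ± 91.3 in Ala and 262 ± 19.9 in Ctrl. Of the acyltransferases that store sterol as esters, ARE2 fell to 457 ± 57.8 in Ala, against 948 ± 136 in Ctrl, whereas ARE1 stood at 3359.6 ± 581 in Ala and 1473 ± 220.4 in Ctrl, with mostly fractional values and therefore uncertain.

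In ergosterol synthesis 16 of 29 genes rose and 6 fell (3 at equal totals), with a median of 0.39. The rises included the late steps ERG26 (0.87) and ERG3 (0.76), the scaffold ERG28 (0.81) and DAP1 (1.04), a heme protein that supports the sterol cytochrome P450. The largest fall was that of ERG5, a cytochrome P450 of the last steps, which averaged 649.8 ± 147 in Ala and 1779.7 ± 34.2 in Ctrl, a log2 difference of -1.48 ± 0.11 (adjusted p = 3.16e-13).

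The largest rise in heme synthesis was at a step that uses oxygen. HEM13 (YDR044W), coproporphyrinogen oxidase, had 5261, 4233, 3340.1 and 8220.3 in Ala, against 708, 700.5, 1139 and 799 in Ctrl. All Ala libraries lay above all Ctrl libraries, Ala D highest, and the log2 difference was 2.60 ± 0.19 (adjusted p = 2.31e-13). Of 12 heme genes 6 rose and 2 fell. HEM2 rose by 0.59 and HEM15, the ferrochelatase that inserts iron, by 0.49, and HEM1, the committed first step, was at 2676 in Ala and 3182 in Ctrl (adjusted p = 0.258). HMX1, heme oxygenase, fell to 26.99 ± 11.4 in Ala, against 59.8 ± 13.4 in Ctrl. Of 11 further genes, of heme and flavin enzymes, oxygen defence and carbonic anhydrase, 2 rose, 4 fell and 5 did not pass. The flavohemoglobin YHB1 fell (-1.25 ± 0.23), as did the mitochondrial superoxide dismutase SOD2 (-1.16 ± 0.15) and the D-lactate dehydrogenases DLD1 (-1.67 ± 0.10) and DLD2 (-0.51 ± 0.09), while DLD3, a cytosolic relative, rose (0.89 ± 0.19) and the carbonic anhydrase NCE103 rose (1.30 ± 0.38).

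Most nuclear genes of the respiratory chain fell. Of 22 subunits 17 fell and none rose, with a median of -1.25. COX4, cytochrome oxidase subunit IV, had 53.1, 126, 81.1 and 46.4 in Ala, against 429, 406, 299.7 and 346 in Ctrl, and COX7 had 31.1, 32.2, 26.3 and 23.6 in Ala, against 159, 123, 119.7 and 158 in Ctrl. For both, the highest Ala library was below the lowest Ctrl library. COR1, a core subunit of the bc1 complex, had 576, 867, 612 and 568 in Ala, against 1870.0, 1746, 1537 and 1813 in Ctrl, a log2 difference of -1.43 ± 0.12 (adjusted p = 1.15e-11), and the Rieske protein RIP1 averaged 121 ± 32.4 in Ala and 394 ± 65.9 in Ctrl. Of the succinate dehydrogenase genes SDH3 alone passed (-0.44, but not at equal totals, where it was -0.25). SDH1, SDH2 and SDH4 were at -0.47, -0.30 and -0.16, of which SDH1 passed with the Ala and Ctrl libraries fitted alone. Whether these genes differ from the rest of the chain was not tested.

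NDE1 (YMR145C), which oxidises cytosolic NADH at the outer face of the inner mitochondrial membrane, had the largest fall of the genes named. It had 109, 443, 152 and 113 in Ala, against 3369, 3307, 2909.9 and 3004 in Ctrl. Ala B was well above the other 3 Ala libraries, and all 4 lay far below Ctrl. The log2 difference was -4.20 ± 0.24 (adjusted p = 1.23e-16). NDI1, the internal enzyme, fell by less (-0.82 ± 0.19), and the paralog NDE2 rose to 81.9 ± 14.6 in Ala, against 39.4 ± 15.6 in Ctrl. The soluble fumarate reductases FRD1 and OSM1, which reoxidise cofactors without oxygen, rose by 0.88 and 0.46. Of the glycerol shuttle, GUT2 fell (-0.77) and so did GPD2 (-0.62).

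Other mitochondrial gene groups gave other balances of rises and falls. In the ATP synthase 10 of 20 genes fell (6 at equal totals) and 2 rose (4 without Ala D, 3 at equal totals, and 1 without Ala A, Ala C, Ctrl C or Ctrl D), with a median of -0.31. Of 20 genes of the citric acid cycle 3 rose (7 at equal totals) and 2 fell (1 at equal totals), shares below the background. LSC2, a subunit of succinyl-CoA ligase, rose to 1982 ± 315 in Ala, against 848 ± 82.3 in Ctrl. Assembly factors of cytochrome oxidase and the bc1 complex rose in 16 of 33 cases and fell in 3 (1 at equal totals). COA4, of the copper-chaperone kind, had 132, 224, 216 and 108 in Ala, against 34.1, 48.6, 40.5 and 64.7 in Ctrl, and SCO1, which delivers copper to the oxidase, averaged 304 ± 42.7 in Ala and 146 ± 22.1 in Ctrl. COA2, another assembly factor, had 6.47, 9.01, 3.75 and 2.53 in Ala, against 54.9, 32.7, 30.5 and 39.5 in Ctrl, with few reads in any Ala library. Mitochondrial ribosomal proteins rose in 41 of 71 cases (62 at equal totals) and fell in none, led by RSM19 (1.39). In the import machinery 12 of 28 rose (18 at equal totals) and 3 fell (1 at equal totals), the largest rises being the matrix chaperonins HSP10 (1.25) and HSP60 (1.08).

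All transaminases examined around alanine changed. Of 6 transaminases that could link alanine, pyruvate and glyoxylate or share their substrates, 4 rose and 2 fell (1 without genes of mostly fractional values). ALT1 (YLR089C), the mitochondrial alanine transaminase, had 8784, 7872, 7571 and 11203 in Ala, against 1542, 1554, 1804 and 1713 in Ctrl. Its Ala libraries lay above every library of the other 8 amino acids (1091 to 4340.3). BAT2, the cytosolic branched-chain transaminase, rose by more, and had 13304, 15957, 13198 and 10985 in Ala, against 1469, 1517, 1375 and 1493 in Ctrl, a log2 difference of 3.18 ± 0.13 (adjusted p = 3.27e-20). BAT1, its mitochondrial paralog, had 8120.2, 5811, 6519 and 10410.1 in Ala, against 13752, 13746, 13873 and 16622 in Ctrl, a log2 difference of -0.94 ± 0.17, so the paralogs moved in opposite directions in all 4 Ala libraries. The GABA transaminase UGA1 rose by 1.24 and the alanine:glyoxylate transaminase AGX1 by 0.56, although the call of AGX1 was lost without any 1 of Ala A, B or C or Ctrl B, C or D. ALT2, related to ALT1, averaged 210.4 ± 48.4 in Ala and 864 ± 134 in Ctrl, with mostly fractional values and therefore uncertain.

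Around pyruvate, PYC1, pyruvate carboxylase, had 9293, 12781, 11432 and 7819 in Ala, against 2249.9, 2353, 2516 and 2788 in Ctrl, a log2 difference of 2.04 ± 0.34 (adjusted p = 7.84e-06). Its paralog PYC2 fell (-0.53 ± 0.11). The pyruvate dehydrogenase E1 subunits PDA1 and PDB1 rose together, by 0.76 and 0.77. GDH2, the glutamate dehydrogenase that releases ammonium and regenerates 2-oxoglutarate, had 3337, 3096, 3212 and 3868 in Ala, against 726, 783, 787 and 691 in Ctrl. It was above Ctrl in all 4 Ala libraries, by a log2 difference of 2.17 ± 0.08, while the glutamate-forming enzymes GDH1 and GLT1 fell (-0.60 and -0.78). CIT2, the peroxisomal citrate synthase used as the marker of mitochondrial retrograde signalling, averaged 5288 ± 1027 in Ala and 1162 ± 572 in Ctrl (2.29 ± 0.32), but against the average of the other 8 amino acids its log2 difference was smaller (0.72 ± 0.24). Of the permeases able to carry alanine, DIP5 had 3501, 3543, 3941 and 3001 in Ala, against 684, 962, 1121 and 1244 in Ctrl. AGP1 had 2419, 1778, 2369 and 3556 in Ala, against 4795, 4329.8, 6525 and 4746 in Ctrl. The groups did not overlap in either, and DIP5 was the higher in Ala and AGP1 the lower. AGP3 rose by 0.68.

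**Figure D3:**
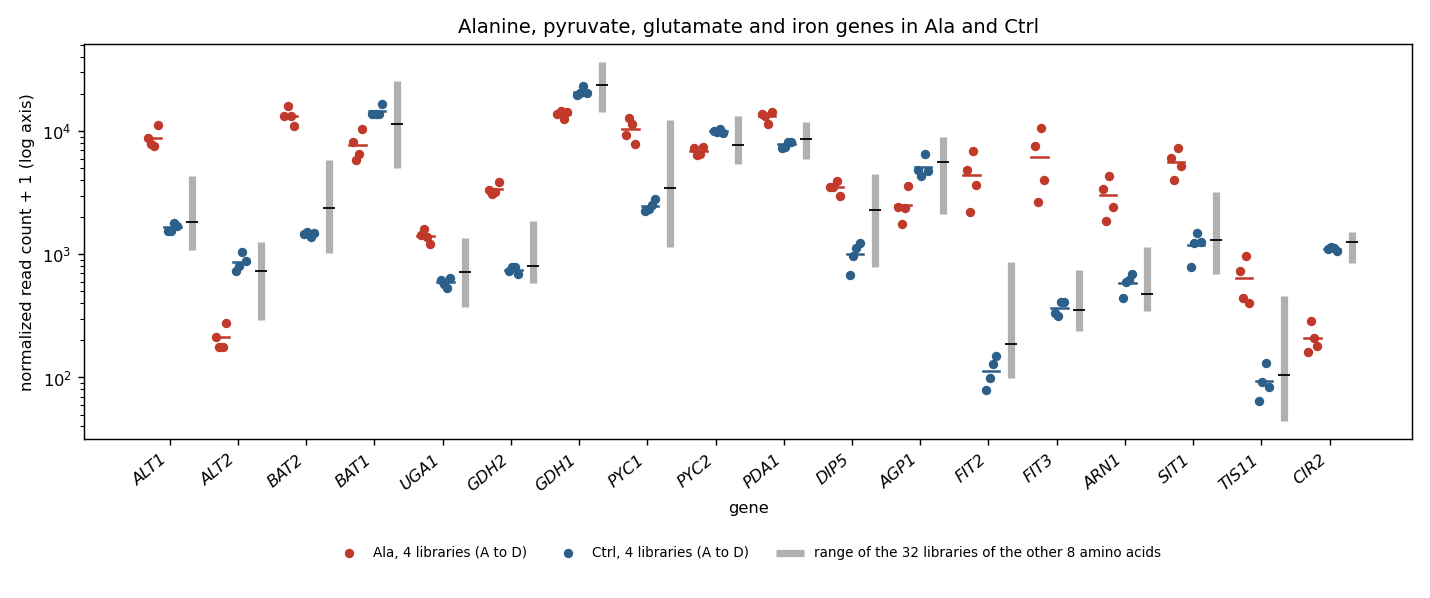
Normalized read count + 1 (log axis) of genes of alanine, pyruvate and glutamate metabolism, permeases and iron genes, with Ala libraries (red) left of Ctrl libraries (blue), the group mean as a line, and the range (grey bar) and median (tick) of the other 8 amino acids. ALT1, BAT2, GDH2, PYC1, FIT2, FIT3, ARN1 and TIS11 lie higher in all 4 Ala libraries than in Ctrl, and ALT2, BAT1, AGP1 and CIR2 lie lower.

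Of 13 genes of siderophore uptake 7 rose, 6 did not pass and none fell. FIT2 (YOR382W), a wall mannoprotein that retains siderophores, had 4874, 2185, 6875 and 3679 in Ala, against 78.7, 97.2, 128 and 147 in Ctrl. Its neighbour FIT3 had 7514, 2636, 10543 and 4041 in Ala, against 331, 316, 410.0 and 409 in Ctrl. Ala B was the lowest of the Ala libraries for both and still above all Ctrl libraries. The log2 differences were 5.20 ± 0.28 (adjusted p = 3.69e-17) and 3.89 ± 0.22 (adjusted p = 2.94e-16). The siderophore transporters ARN1 and SIT1 averaged 3009 ± 1094 in Ala and 586 ± 106 in Ctrl, and 5637 ± 1349.6 in Ala and 1191 ± 294 in Ctrl. ENB1 rose by 0.78, and the ferric reductases FRE1 and FRE2 were at -0.10 and 0.14 and did not pass. In reductive iron and copper uptake 9 of 18 rose and 2 fell (1 at equal totals and 1 without Ala B). FET4, the low-affinity iron transporter, rose by 0.95, the permease FTR1 by 0.70, and the vacuolar iron importer CCC1 fell (-0.65).

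TIS11, also called CTH2, which degrades messenger RNAs of iron-using proteins, had 738, 438, 969 and 403 in Ala, against 63.8, 91.3, 129.6 and 83.4 in Ctrl, a log2 difference of 2.73 ± 0.28 (adjusted p = 8.6e-10). Every Ala library was above every Ctrl library. CIR2, a mitochondrial flavoprotein, had 160.5, 287, 208 and 179.7 in Ala, against 1103, 1151, 1124 and 1063 in Ctrl. Its levels in Ala lay below all 32 libraries of the other 8 amino acids (844 to 1518), and the log2 difference from their mean was -2.55 ± 0.08. AFT1 was at 1358 in Ala and 1277 in Ctrl and did not pass. Both main zinc transporters of the plasma membrane fell, with ZRT1, the high-affinity transporter, at 299 ± 76.03 in Ala and 1016 ± 429 in Ctrl (-1.71 ± 0.40) and ZRT2 at 853 ± 72.7 in Ala and 1922 ± 186 in Ctrl (-1.17 ± 0.14). IZH4, a membrane protein of the zinc and sterol responses, rose to 716 ± 227 in Ala, against 172 ± 47.1 in Ctrl, while ZAP1, the zinc-sensing activator, was at 474 in Ala and 533 in Ctrl and did not pass.

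Falls outnumbered rises in one-carbon metabolism and purine synthesis. Of 18 serine, glycine and one-carbon genes 9 fell and 2 rose (1 without any 1 of Ala A, B or C or Ctrl B, C or D). GCV2, of the mitochondrial glycine cleavage complex, had 1505, 1287, 1698 and 1767 in Ala, against 5191, 5420.2, 6197 and 5695 in Ctrl. SHM2, the cytosolic serine hydroxymethyltransferase, had 8949, 7733, 7184 and 13260.4 in Ala, against 27623, 27576, 35233 and 28789 in Ctrl, a log2 difference of -1.72 ± 0.14 (adjusted p = 3.21e-12). The ranges were far apart in both genes. Of 18 purine genes 15 fell and 1 rose (none without Ala A, Ala B, Ctrl A or Ctrl C), with a median of -0.72, and among the falls were ADE17 (-1.14), ADE4 (-1.06), which opens the pathway, and MTD1 (-1.58), a folate enzyme.

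Other amino acid pathways differed from each other. In arginine synthesis 6 of 10 rose and none fell, with a median of 0.65. ARG3, ornithine carbamoyltransferase, had 10328, 6167, 9638 and 6585 in Ala, against 3022, 2802, 907 and 3075 in Ctrl, and ARG8 had 5831, 3106, 5257 and 3844 in Ala, against 1680.0, 1576, 1089.8 and 1543 in Ctrl. Ctrl C was the lowest Ctrl library for this pathway, and without it 5 genes rose and the median was 0.45. In lysine synthesis 6 of 10 fell, all by less than 2-fold. In sulfur assimilation and methionine synthesis 18 of 34 rose and 4 fell. The rises included STR3, cystathionine beta-lyase, at 288 ± 110.4 in Ala and 45.6 ± 16.5 in Ctrl (2.61 ± 0.33), MHT1 (2.09) and MET16 (1.31). The largest rise of the list was that of MET28 (5.82 ± 0.62), a cofactor of sulfur gene transcription. MET28 had 177, 239, 269 and 116 in Ala, against 2.60, 0.0165, 1.75 and 12.2 in Ctrl, but its values were mostly fractional, so its level is uncertain. In the phenylalanine libraries it averaged 177 ± 70.6.

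Rises outnumbered falls among nitrogen and vitamin genes, while among phosphate and phospholipid genes the balance turned with the scaling. Of 29 genes under nitrogen catabolite repression 11 rose and 3 fell. DAL1, allantoinase, had 95.8, 130.1, 145 and 102 in Ala, against 22.3, 25.8, 37.5 and 32.9 in Ctrl, and the peptide transporter OPT2 had 126, 174, 163 and 135 in Ala, against 599.6, 639.9, 731 and 748 in Ctrl. DAL1 was higher in every Ala library and OPT2 lower. Among vitamin and cofactor genes 12 of 19 rose (8 without Ala A and 7 without Ala C) and 1 fell. RIB4, lumazine synthase of the riboflavin pathway, averaged 3675 ± 126 in Ala and 939 ± 248 in Ctrl (2.001 ± 0.16), and BIO5, which imports a biotin precursor, 557 ± 191 in Ala and 156 ± 29.1 in Ctrl (1.78 ± 0.16). Of 25 phosphate genes 4 rose and 6 fell, shares at or below the background (8 and 4 at equal totals). PHO3, an acid phosphatase not induced by low phosphate, fell to 2131 ± 531 in Ala, against 6077 ± 641 in Ctrl. The phosphate transporters PHO84 and PHO89, chosen after their values were seen, did not pass against Ctrl (0.37 and 0.02), although PHO84 did without Ala C (0.73). Relative to the mean of the other 8 amino acids they were lower, by a log2 difference of -1.66 ± 0.19 for PHO84 (adjusted p = 8.94e-09) and -2.06 ± 0.27 for PHO89 (adjusted p = 8.52e-08). In phospholipid synthesis 8 of 19 fell (3 at equal totals) and 2 rose (5 at equal totals and 4 without Ctrl C). The inositol transporter ITR1 averaged 5595 ± 1199 in Ala and 11269.9 ± 3046 in Ctrl (-1.001 ± 0.18), and OPI1, the repressor of inositol-responsive genes, 592 ± 92.6 in Ala and 1085 ± 239 in Ctrl (-0.86 ± 0.16).

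Among genes of protein synthesis falls outnumbered rises, both at the deposited scaling and at equal totals. Of 138 cytosolic ribosomal protein genes 103 fell (60 at equal totals) and 1 rose, and of 119 ribosome assembly factors 100 fell (66 at equal totals). Their median log2 differences were -0.46 and -0.60. Many ribosomal protein genes have a near-identical paralog, so single values are uncertain. The gene that rose was RPL15B (0.38 ± 0.15), a call lost without Ala B, Ala C, Ctrl B or Ctrl D. DBP2, an RNA helicase of ribosome assembly, had 5222, 2694, 3639 and 9653 in Ala, against 12186, 11649, 13638 and 10340.1 in Ctrl. Ala D lay far above the other Ala libraries and just below the lowest Ctrl library, and the log2 difference was -1.33 ± 0.33. Falls were also found for 14 of 21 RNA polymerase I and III subunits, for 28 of 38 translation factors and for 17 of 21 cytosolic aminoacyl-tRNA synthetases. The size of these counts rests on the scaling, and at equal totals they were 7, 16 and 4, beside 0, 3 and 1 rises. Over all 6103 genes tested, 758 fell at equal totals. Leaving out 1 library took the polymerase count to 9 (without Ala B) or 8 (without Ala C) and the synthetase count to 10 (without Ala C) or 11 (without Ctrl C). The alanyl-tRNA synthetase ALA1 fell by little (-0.37 ± 0.10, adjusted p = 0.003) and did not pass at equal totals (-0.19). GCN4, the activator of amino acid synthesis genes, whose output is set mostly by translation, was at 11678 in Ala and 11197 in Ctrl and passed only at equal totals (0.25).

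Among chaperone and stress genes rises outnumbered falls. Of 30 heat shock chaperones 21 rose and none fell, with a median of 0.78. HSP82, an Hsp90, had 3920.3, 7376, 4682 and 1758 in Ala, against 637, 625, 493 and 839 in Ctrl, a log2 difference of 2.62 ± 0.52 (adjusted p = 0.000102). All Ala libraries lay above all Ctrl libraries, with Ala B highest and Ala D lowest. Its constitutive paralog HSC82 rose by less, to 22569.5 ± 3459 in Ala, against 15546 ± 193 in Ctrl. The aggregate-binding HSP42 had 348, 938, 547 and 206 in Ala, against 131, 111, 176 and 176 in Ctrl, a log2 difference of 1.58 ± 0.49 that did not pass without Ala B (1.22), and the mitochondrial disaggregase HSP78 averaged 1312 ± 614 in Ala and 225 ± 34.4 in Ctrl. In the general stress response 35 of 64 rose and 3 fell (5 without Ala B). HSP12, a membrane-stabilising stress protein, had 1042, 1393, 2733 and 542 in Ala, against 251, 163, 118 and 250.1 in Ctrl. Its difference from the mean of the other 8 amino acids was 0.71 ± 0.46 and did not pass (adjusted p = 0.205), against 2.69 ± 0.62 from Ctrl. Averaged over the stress list, the log2 level was 8.44, 8.94, 8.78 and 8.03 in Ala libraries A to D, against 7.77, 7.62, 7.70 and 7.75 in Ctrl, so Ala B was highest and Ala D lowest.

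Of 33 autophagy genes 20 rose, 13 did not pass and none fell, with a median of 0.57. ATG41 had 969, 515, 957 and 472 in Ala, against 94.98, 97.2, 84.5 and 145 in Ctrl, ATG8, the ubiquitin-like protein of the autophagosome membrane, averaged 77.6 ± 29.8 in Ala and 23.9 ± 2.80 in Ctrl, and ATG1, the initiating kinase, 309.7 ± 54.5 in Ala and 122 ± 9.31 in Ctrl. Of 37 proteasome genes 20 rose and none fell, and the rises became 33 at equal totals and 10 without Ala B. The sizes were small, as for ECM29 (0.61), RPN14 (0.55) and RPT1 (0.50).

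**Figure D4:**
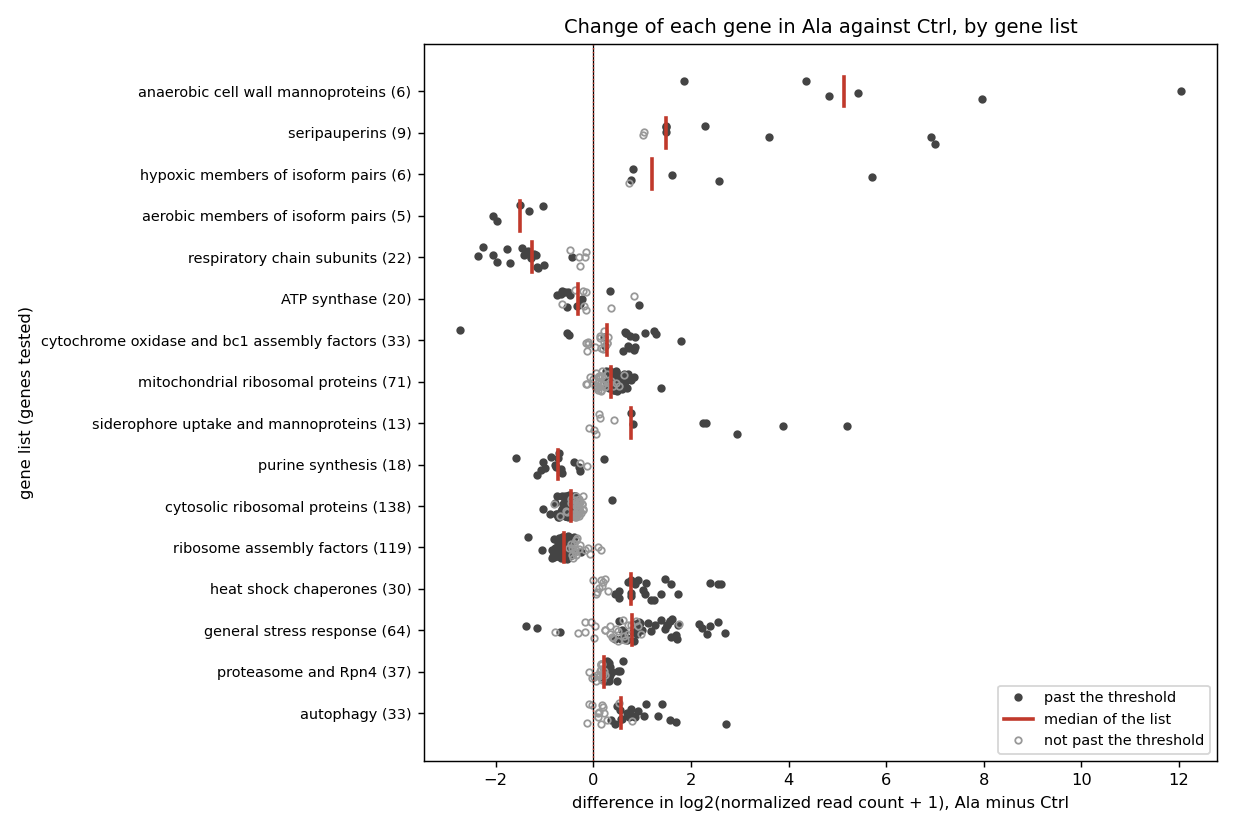
Difference in log2(normalized read count + 1), Ala minus Ctrl, of each tested gene in 16 gene lists, with genes past the threshold as filled points, the others as open points, the median of each list as a red line and 0 as a thin line. The anaerobic wall proteins have the highest median, 5.13, and the aerobic isoforms the lowest, -1.50.

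**Figure D5:**
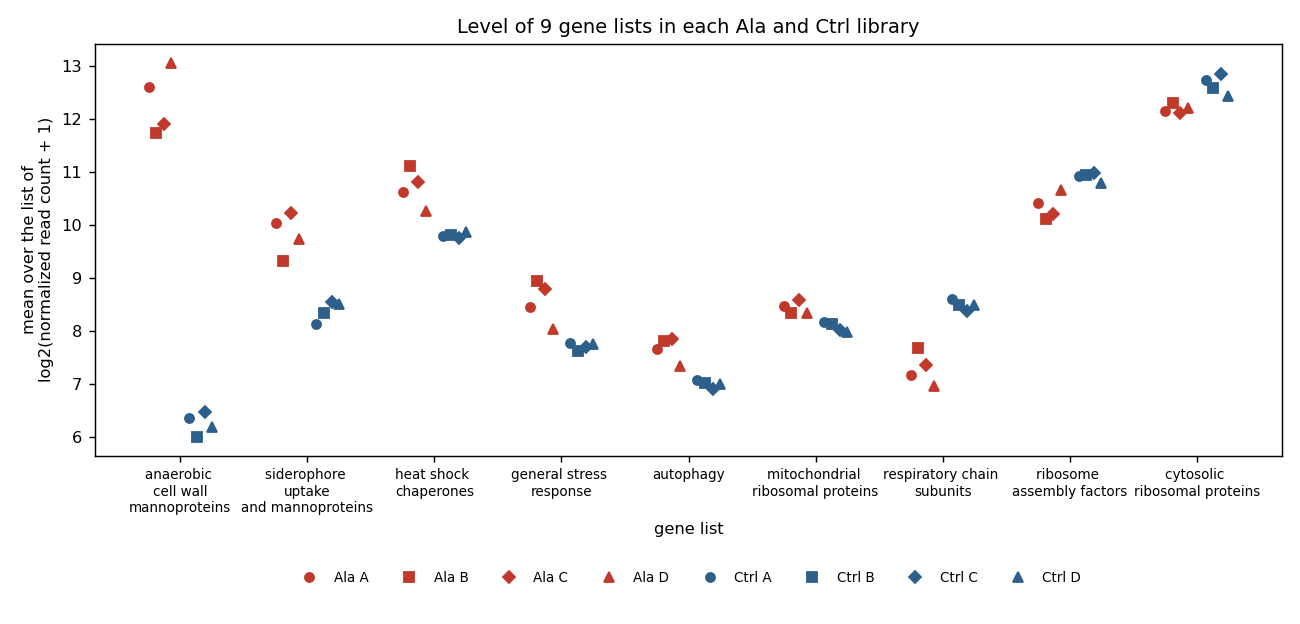
Mean log2(normalized read count + 1) over 9 gene lists in each library, Ala (red) left of Ctrl (blue), with a marker shape for each letter. Ala D is the highest of the 4 Ala libraries for the anaerobic wall proteins and the lowest for the stress response.

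Among genes of oxidative and replication stress, TSA2, a stress-induced peroxiredoxin, had 958, 1144, 908 and 726 in Ala, against 78.7, 67.5, 78.01 and 66.9 in Ctrl, a log2 difference of 3.65 ± 0.21 (adjusted p = 2.02e-16). OYE3 and GTT2 rose (2.06 and 1.46), and of 24 genes on that list 10 rose and 2 fell (1 at equal totals). HUG1, an inhibitor of ribonucleotide reductase, had 321, 112, 359.6 and 267 in Ala, against 19.3, 12.9, 14.7 and 9.87 in Ctrl. In DNA replication and the making of its nucleotides, 11 of 31 genes fell (2 at equal totals) and 4 rose (9 at equal totals), with a median of -0.16. The rises included the reductase subunits RNR3 and RNR4, RNR3 to 444 ± 63.6 in Ala, against 85.3 ± 16.9 in Ctrl, and RNR4 to 9575 ± 1114 in Ala, against 3281 ± 313 in Ctrl, and the falls the replicative helicase subunits MCM7 (-0.69) and MCM3 (-0.57).

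Among glucose sensing and transport genes falls outnumbered rises. Of 26 genes 11 fell and 4 rose (2 without Ala A and 2 without Ctrl A). HXT4, a transporter induced at low to moderate glucose, had 158, 151, 119 and 207 in Ala, against 2249.9, 1439.6, 1289 and 1143 in Ctrl. Every Ala library was below every Ctrl library. Its difference from the mean of the other 8 amino acids was smaller, -1.77 ± 0.28, against -3.24 ± 0.38 from Ctrl. HXT2 fell against Ctrl (-1.52 ± 0.36), but against the mean of the other 8 it was at -0.20 ± 0.27 and did not pass (adjusted p = 0.563). MIG2, a glucose repressor, fell (-1.68), as did MTH1 (-1.65). In glycolysis 9 of 20 genes fell and 4 rose, GPM2 being the largest rise (2.30) and PFK27 the largest fall (-1.16).

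Of 15 cyclins and inhibitors 10 fell, and of 10 histone genes 7 fell (4 at equal totals), while the other members of these lists did not pass. CLN3, the cyclin that opens the cycle in G1, had 594, 488, 580.3 and 796 in Ala, against 1469, 1569, 1596 and 1931 in Ctrl, a log2 difference of -1.43 ± 0.17 (adjusted p = 3.9e-08), and the mitotic cyclin CLB2 averaged 376 ± 28.8 in Ala and 718 ± 26.05 in Ctrl. The groups did not overlap in either. Of 19 multidrug pumps and their regulators 12 rose and 4 fell. PDR5, the main pump for many drugs and steroids, had 9721, 6726, 12922 and 7734 in Ala, against 3494, 3405, 3413 and 3573 in Ctrl, and its activator PDR3 rose by 0.86. The polyamine and acid exporters TPO2, PDR12 and TPO1 fell (-1.49, -1.17 and -1.14), PDR12 not passing against the other 8 amino acids (adjusted p = 0.121).

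Of the genes with the largest changes that belong to none of the groups above, RGS2, a regulator of glucose-dependent G protein signalling, had 98.4, 94.01, 118 and 142 in Ala, against 892, 883, 551 and 727 in Ctrl, a log2 difference of -2.74 ± 0.33. YKR075C, a gene of unknown function, had 168, 81.1, 152 and 372 in Ala, against 2619, 2326, 1187 and 1426 in Ctrl (-3.42 ± 0.65). Both were lower in all 4 Ala libraries. From the mean of the other 8 amino acids YKR075C differed by -1.67 ± 0.49 and RGS2 by -1.78 ± 0.24. The non-coding RNAs snR8 and snR37, guides of RNA modification, averaged 8.13 ± 5.97 in Ala and 50.9 ± 26.6 in Ctrl, and 15.6 ± 9.86 in Ala and 83.7 ± 36.9 in Ctrl. From the mean of the other 8 amino acids snR37 differed by -1.03 ± 0.50, which did not pass (adjusted p = 0.0843). Small RNAs of this kind lack a normal poly(A) tail and are only partly captured in poly(A) libraries. YOR248W averaged 30.4 ± 21.2 in Ala and 95.9 ± 20.7 in Ctrl, but its values were mostly fractional and its fall did not pass with the Ala and Ctrl libraries fitted alone, so it is uncertain.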

How the data were processed

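RNA was measured in 40 yeast libraries, 10 groups of 4, and each column of the deposited table matched the labels of a single library. Per the labels' protocols, RNA was extracted with a yeast RNA kit and DNase I, and directional poly(A) libraries were made. The authors deposited normalized read counts, here treated as a signal since they are not raw counts. The submitters' processing notes name STAR 2.7.8a and Partek without a role, while how the values were scaled, which genome build and annotation were used, and whether counting used strand is not given in the sources used here. In each library 88.8% to 90.9% of the deposited values were whole multiples of the step of 1 read, within 0.1 read. The size of that step gave the estimated depths, and 771 genes with fractional values in over 50% of the libraries are called mostly fractional, as reads shared between genes would be. Depth sets the counting error only.

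Groups and batch letters came from the labels. Genes with a mean of at least 5 (6103 of 6462) were tested with limma 3.58.1 (R 4.3.3) on log2(value + 1), with 1 mean per group over all 40 libraries, an intensity trend and Benjamini-Hochberg adjustment, at 0.05. The contrasts were Ala minus Ctrl and Ala minus the mean of the other 8 amino acids. The procedure was also run on simulated data that held few changed genes and no batch or scaling differences. That run cannot speak to data in which many genes change or the scaling matters, as here. The labels call the letters A to D batches, which pairs the libraries across groups. Deviations from the group means correlated at 0.174 on average between libraries of the same letter and at -0.058 between different letters, and between Ala and Ctrl at -0.041, 0.168, 0.140 and 0.054 for A to D. Within groups, library pairs correlated at 0.971 to 0.983 in Ala and 0.983 to 0.990 in Ctrl.

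The gene lists, and the genes they hold, were chosen with earlier results of these data known. Named genes are the 12 largest rises and 12 largest falls with the same sign in all 4 pairs and a mean of at least 20, any member of a short list (up to 14 measured members), up to 6 rises and 6 falls of a longer list, and the 8 highest and 8 lowest against the other 8 amino acids among genes set apart with a mean of at least 20. Alternatives were a pseudocount of 0.25 or 4, no filter, median-of-ratios or equal-total scaling, the batch letter as a block, a fit without the groups not compared, and leaving out the libraries in turn. Leaving out Phe replicate C, which stood apart from its group, and leaving out mostly fractional genes were added after seeing the data. Of the gene IDs 5851 were found in RefSeq's R64 gene table, which filled in 187 missing symbols. The 4 lines that held no values were not used. Promoters were read from R64 by gene name, 300 bases for 6007 genes.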

Additional observations from a re-analysis of the deposited data

Results flagged for a closer look

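In 31 of 470 groups of 4 libraries looked at (6.60%), the highest or lowest library stood apart from the other 3 by more than Dixon's 95% critical value, where chance gives about 1 in 20. The values below are the gap to the nearest library as a share of the range, on the log2 scale.

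In Ala, library B was lowest for ERG3 (0.927), HAP2 (0.866), PFK27 (0.888) and YOR248W (0.91) and highest for GUT2 (0.862). Ala C was highest for ROX1 (0.877). Ala D was lowest for AGX1 (0.863), for the mean of the pyruvate carriers and pyruvate dehydrogenase (0.839) and for the hypoxic members of isoform pairs (0.841), and highest for heme synthesis and breakdown (0.885).

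In Ctrl, library C held 12 of the flags. It was lowest for ARG3 (0.924), GPM2 (0.894), HSP78 (0.945), PDR3 (0.853), the citric acid cycle (0.921) and arginine synthesis (0.949). It was highest for ANB1 (0.911), ECM22 (0.88), GCN4 (0.872), SLT2 (0.875), ZRT1 (0.836) and the iron regulators (0.923). Ctrl A was highest for AGX1 (0.867) and SDH2 (0.85) and lowest for the aerobic members of isoform pairs (0.83). Ctrl B was lowest for CWP2 (0.931), TIR1 (0.914) and TPO1 (0.888). Ctrl D was highest for BAT1 (0.952) and for monocarboxylate and weak acid transport (0.837) and lowest for the hypoxic members of isoform pairs (0.85). In ANB1, CWP2, ROX1 and TIR1 the 4 Ala libraries lay on 1 side of the 4 Ctrl libraries whichever library was flagged.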

How the results depend on the processing

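Under all alternatives run, the number of genes changed in Ala against Ctrl lay between 2458 (without Ala C) and 3203 (batch letter as a replicate block), beside 2881. Against the other 8 amino acids it lay between 2495 and 3359, for genes set apart between 1998 and 2745, and for changes of at least 2-fold between 488 and 598. Leaving out single libraries gave 2458 to 3046, 2495 to 3115, 1998 to 2622 and 498 to 595 genes for these 4 counts. With the pairing of libraries by batch letter as a block, the counts were 3203, 3346, 2745 and 545, 2880 of the 2881 calls against Ctrl remained, and no call of a named gene changed. No named gene that passed against Ctrl changed direction under any alternative. Named genes that did not pass, and lay near 0, did so: at equal totals FRE1 was at 0.0896, HAP2 at 0.177, HAP3 at 0.175 and SDH4 at 0.0315 on the log2 scale, and with single libraries left out HAP2 ran over -0.0916 to 0.0448, HAP3 over -0.0849 to 0.0278, OLE1 over -0.177 to 0.226 and PHO89 over -0.325 to 0.275, none of which passed. Rescaling to equal totals moved the balance of rises and falls most, and its counts stand beside lists that it moves by over 1.5 times. Genes of near-identical families and mostly fractional values, and genes with few reads in 1 group, are measured least well.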

Other observations

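The gag and gag-pol genes of Ty retrotransposons, chosen after their values were seen, were higher in Ala. Of 50 listed genes 42 were tested, 24 rose and 0 fell, with a median log2 difference of 0.69, beside -0.01 over all genes tested. They are near-identical copies and 16 of them had mostly fractional values, so single values are uncertain. The small nucleolar and nuclear RNAs named snR, also chosen after their values were seen, were lower. Of 56 listed genes 35 were tested, 0 rose and 22 fell, with a median of -1.36. The summed means of these RNAs were 890 normalized reads in Ala and 2055 in Ctrl. RNAs of this kind are only partly captured in poly(A) libraries. From the mean of the other 8 amino acids snR8 differed by -1.54 ± 0.49, which passed, and snR37 by -1.03 ± 0.50, which did not.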
